A study of Drosophila melanogaster with 3 samples.

Results

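The GATA factor genes of Drosophila melanogaster, srp (serpent), pnr (pannier), GATAe, grn (grain) and GATAd, encode zinc finger transcription factors that bind variants of the sequence GATA. Their neighbourhoods were searched here for regions bound by Hey in a ChIP-seq experiment on embryos. A binding region was assigned to a gene when its summit, the position given by the authors as the region's point of highest signal, lay inside the gene or within 10 kb of it. By this rule the 5 genes, of 18164 annotated, held 9 of the 3319 regions in the authors' list thresholded by irreproducible discovery rate (IDR), and 49 of the 30000 regions called on the pooled libraries. They also held 39 of 30000 regions of replicate 1, 66 of 30000 of replicate 2 and 63 of 30000 of replicate 3. The rule used no measured value of a gene or region, but the 5 genes were chosen with earlier results of these data known.

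The series held 1 group of 3 biological replicates of mixed-sex whole embryos aged 6 to 24 h, from a transgenic line that stably expresses Hey with GFP at its C terminus. The free-text description called each library an input control, whereas the assay title was that of a transcription factor ChIP, the antibody was given as Hey and another experiment was listed as the control. They are treated here as ChIP libraries, and the conflict was not settled. Embryos were assayed whole, so strong binding in a few cells and weak binding in many cannot be told apart. The labels call the replicates biological and say no more of how the embryos were collected, so a p-value measures only the spread between these libraries.

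GATA factors act at the start of several embryonic lineages. In the fly, srp directs the formation of blood cells, fat body and endoderm. GATAe acts after srp in the endoderm and keeps the midgut differentiated. pnr patterns the dorsal epidermis and the cardiac mesoderm, and with its cofactor U-shaped it controls sensory bristle formation on the notum. grn shapes the posterior spiracles and guides motor axons. Hey belongs to the basic helix-loop-helix proteins with an Orange domain, which mostly repress transcription, and it is known as a Notch target in newborn neurons. Proteins of this family bind the E-box CACGTG and the class C site CACGCG.

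The sequences around selected summits, strong and weak, are shown first. The results turn on which of them carry a site for Hey's family and which a GATA site. Capitals mark each CACGTG and CACGCG and each of the 4 GATA hexamers, on either strand. The hexamers are AGATAA and AGATAG, and with T as the first base TGATAA and TGATAG. All are read from the RefSeq release 6 genome in the direction of the gene named, which is the plus strand except for grn. The first pair, 100 bp on either side of the summit, are from the first intron of GATAe (3R:16014681-16014881) and from the interval between srp and GATAe (3R:16005175-16005375).
GATAe intron 1: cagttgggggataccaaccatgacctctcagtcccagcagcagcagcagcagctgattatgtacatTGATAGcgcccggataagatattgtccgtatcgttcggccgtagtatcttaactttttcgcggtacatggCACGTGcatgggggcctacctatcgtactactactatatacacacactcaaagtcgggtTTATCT
srp to GATAe: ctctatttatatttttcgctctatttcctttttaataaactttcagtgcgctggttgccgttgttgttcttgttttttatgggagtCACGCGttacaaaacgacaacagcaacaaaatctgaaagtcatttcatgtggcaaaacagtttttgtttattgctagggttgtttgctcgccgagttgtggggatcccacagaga
The next 4, with 60 bp on either side of the summit, lie just upstream of a transcription start site (TSS) of srp (3R:15985879-15985999), GATAe (3R:16012034-16012154), pnr (3R:16025890-16026010) and grn (3R:8181520-8181640, minus strand), and are set side by side to show that none carries CACGTG or CACGCG.
srp promoter: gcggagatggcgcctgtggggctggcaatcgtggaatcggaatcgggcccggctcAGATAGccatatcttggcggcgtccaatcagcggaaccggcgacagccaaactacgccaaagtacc
GATAe promoter: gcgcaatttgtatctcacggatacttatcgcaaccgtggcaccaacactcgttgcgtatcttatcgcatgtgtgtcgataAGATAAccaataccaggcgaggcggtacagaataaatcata
pnr promoter: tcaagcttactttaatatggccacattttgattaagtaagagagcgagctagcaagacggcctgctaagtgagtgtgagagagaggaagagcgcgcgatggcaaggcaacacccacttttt
grn promoter: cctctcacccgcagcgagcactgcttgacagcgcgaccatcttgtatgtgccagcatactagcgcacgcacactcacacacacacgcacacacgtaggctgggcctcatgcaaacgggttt
The last pair are from places with neither CACGTG nor CACGCG, and no GATA hexamer, in the bases shown. They are the sixth intron of grn (3R:8152774-8152894, minus strand, 60 bp on either side of the summit) and the first intron of GATAd (2L:10335002-10335225), where the sequence spans the separate summits of replicates 1 and 3.
grn intron 6: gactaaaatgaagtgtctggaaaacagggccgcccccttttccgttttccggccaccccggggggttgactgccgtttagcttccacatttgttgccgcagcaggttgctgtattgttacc
GATAd intron 1: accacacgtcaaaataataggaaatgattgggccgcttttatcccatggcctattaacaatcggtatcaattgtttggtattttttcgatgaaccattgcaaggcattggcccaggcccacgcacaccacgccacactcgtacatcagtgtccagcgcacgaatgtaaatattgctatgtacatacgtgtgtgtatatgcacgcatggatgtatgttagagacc

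The 4 genes other than GATAd had at least 1 IDR region, and the number per gene differed widely. GATAe had 6, srp 5, grn 2, pnr 1 and GATAd none. Of all 13945 protein-coding genes, 44.6% had at least 1 IDR summit in the same window, and of all 18164 genes 43.3%, so that 4 of 5 is to be read against a common event. Of the 5 genes, 3 had at least 2 summits, against 20.7% of protein-coding genes. A summit inside the gene itself was found at GATAe and grn, 2 of 5, against 9.15%. That share was not adjusted for gene length, and grn spans 34077 bp. At least 5 summits were present at 1.96% of protein-coding genes and at least 6 at 0.911%, against medians of 2 over the 5 GATA factor genes and 0 over protein-coding genes. Per 10 kb of window, GATAe had 2.00 IDR summits, srp 1.32, grn 0.370 and pnr 0.280, beside 0.248 per 10 kb of the 6 chromosome arms. By this density GATAe stood above 99.04% of protein-coding genes, srp above 95.3%, grn above 60.7% and pnr above 58.0%. The counts of srp and GATAe are not independent, because both genes claimed 4 of the same regions, and GATAe and pnr shared 1.

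**Figure D1:**
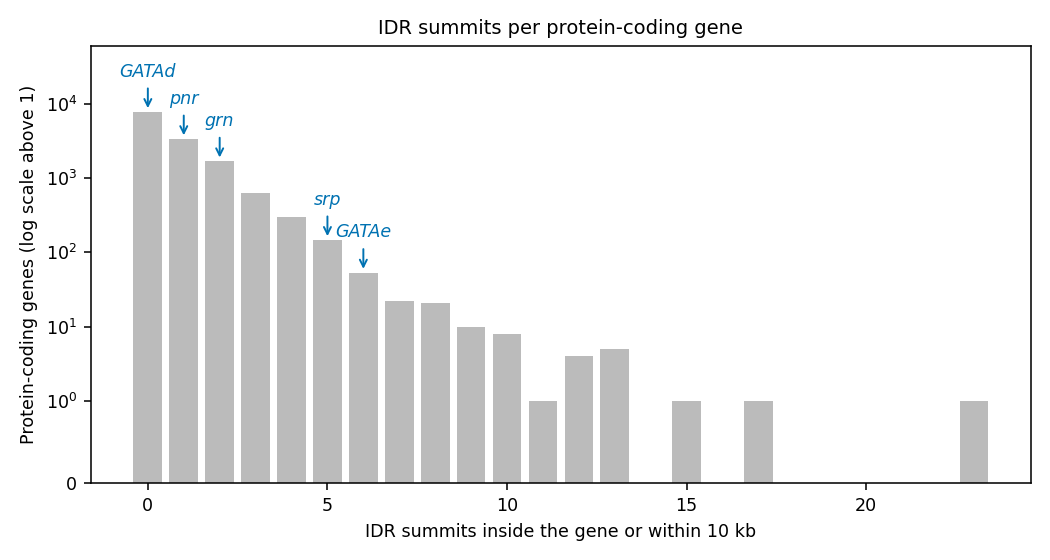
Histogram of IDR summits inside or within 10 kb of each of the 13945 protein-coding genes. The x axis is the number of summits, the y axis the number of genes on a log scale above 1, and arrows mark the bars that hold GATAd (0 summits), pnr (1), grn (2), srp (5) and GATAe (6).

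srp, GATAe and pnr are neighbours on 3R. srp (FBgn0003507) occupies 3R:15986152-16004085, GATAe (FBgn0038391) 3R:16009105-16019133 and pnr (FBgn0003117) 3R:16026079-16041796 in dm6, all on the plus strand. From 10 kb before srp to 10 kb after pnr, a stretch of 75.6 kb, there were 7 IDR summits, or 0.925 per 10 kb. They were not spread evenly: 3 fell in the 5.02 kb between srp and GATAe, 2 inside GATAe, 1 just before pnr and 1 just before srp. None fell inside the 17.9 kb of srp itself, although 7 weaker pooled summits did. The window of srp held 23 pooled summits, 5 of them among the 3319 highest, that of GATAe 19, of which 6 were among the highest, and that of pnr 3, of which 1 was. At pnr replicates 1, 2 and 3 had 3, 14 and 7 summits, whereas they had 18, 25 and 23 at srp and 14, 22 and 20 at GATAe.

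**Figure D2:**
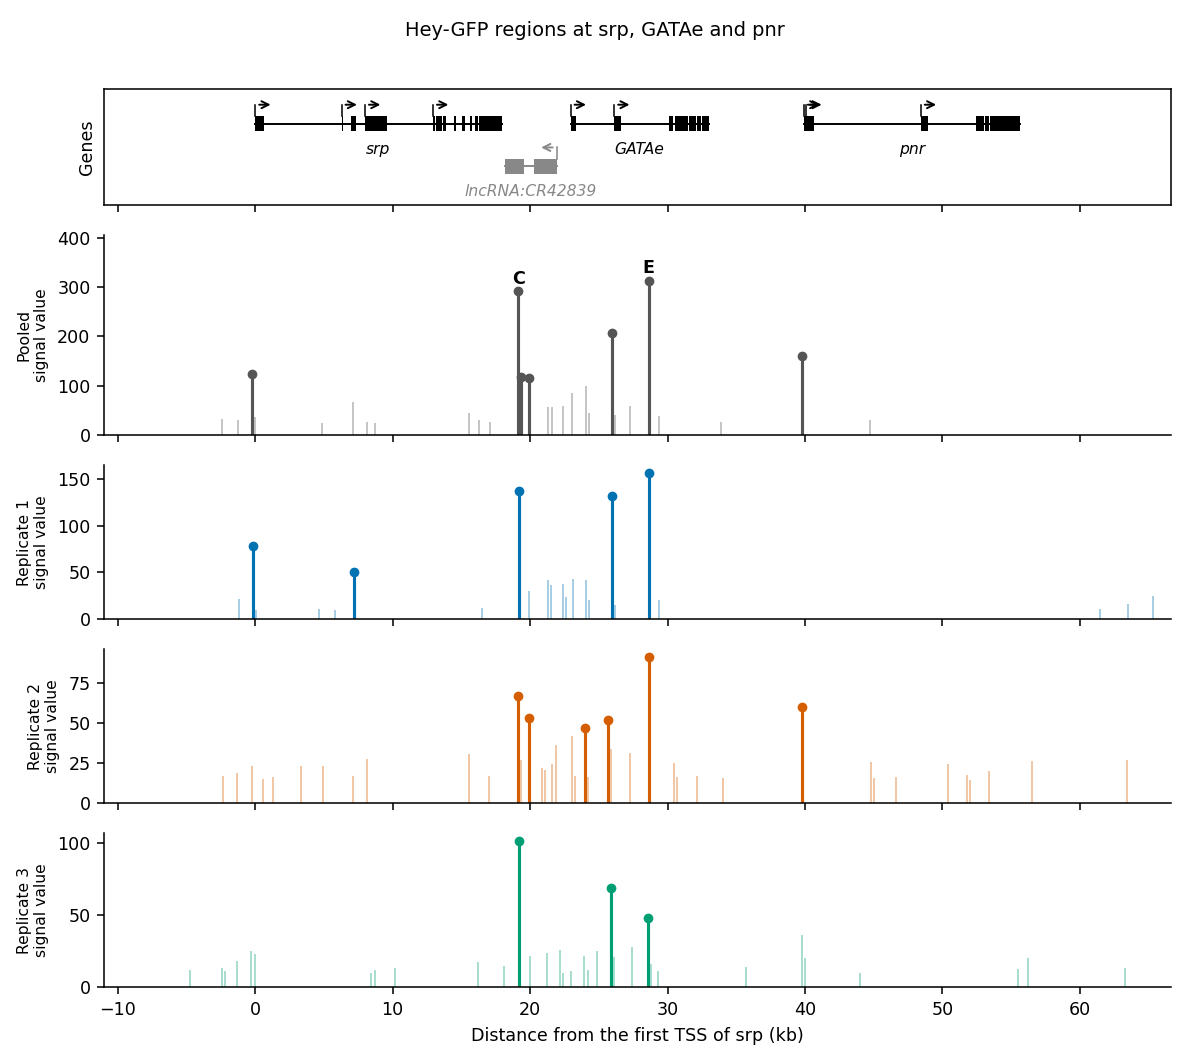
Regions at srp, GATAe and pnr, with gene models above (boxes are exons, arrows are TSSs) and the lncRNA gene CR42839 in grey. The x axis is the distance from the first TSS of srp in kb, and each stem is a summit with its height in the signal value of that list. Dots mark regions among the 3319 highest of the list, and E and C mark pooled summits among these with CACGTG or CACGCG within 100 bp. The tallest pooled stems are those of the GATAe intron and of the srp to GATAe interval, and replicate 1 has no stem at the pnr TSS.

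The strongest region at any GATA factor gene lay in the first intron of GATAe, the midgut factor, at 3R:16014675-16014898 with its summit at 16014781. The summit was 2507 bp downstream of the second of the gene's TSSs, and in the first intron of all 3 annotated transcripts. It ranked 552 of 3319 with a signal value of 312. The signal value comes from the authors' peak caller, has no stated scale and orders regions only within 1 list, where the IDR list ran from 1914 down to 115.1. Replicate 1 placed it at rank 301 (signal value 157), replicate 2 at rank 964 (91.2) and replicate 3 at rank 2060 (48.1), each with a summit no more than 40 bp from the pooled one. All 3 replicates thus listed it among their 3319 highest. A CACGTG lay 38.5 bp from the summit, at 3R:16014817-16014822, and a TGATAG and an AGATAA lay 31.5 and 97.5 bp from it. Of the 9 IDR summits it alone had both a site for Hey's family and a GATA hexamer within 100 bp.

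The second region by rank lay between srp and GATAe, at 3R:16005213-16005587, in an exon of the non-coding gene lncRNA:CR42839 (FBgn0262028, 3R:16004321-16008073, minus strand). Its summit at 16005275 was 1190 bp beyond the 3' end of srp and 3830 bp before the first TSS of GATAe. It ranked 650 with a signal value of 291, and 412 (137), 1713 (66.7) and 472 (101) in replicates 1, 2 and 3, with the replicate's own signal value in parentheses. It too was among the 3319 highest in every replicate. A CACGCG lay 11.5 bp from the summit, at 3R:16005261-16005266, and no GATA hexamer lay within 100 bp. The same interval carried another summit, at 16005476, which ranked 3194 with a signal value of 118. Within 100 bp of that summit only replicate 2 had a region, at rank 8812. The regions of replicates 1 and 3 at ranks 412 and 472 overlapped the interval, with summits more than 100 bp from 16005476. A further IDR region, at 3R:16005865-16006268, had its summit in the intron of the same non-coding gene, ranked 3281, and was among the 3319 highest of replicate 2 (rank 2556) but not of replicate 1 (7202) or replicate 3 (8851). Neither of these weaker summits had any of the sites within 100 bp.

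Each of the 4 genes with IDR regions had exactly 1 summit a short way upstream of one of its TSSs, a pattern picked out after the values were seen. The distances were 213 bp for the first TSS of srp, 180 bp for the second TSS of GATAe, 129 bp for the first TSS of pnr and 136 bp for the only TSS of grn. Of all 13945 protein-coding genes, 1052 (7.54%) had an IDR summit up to 500 bp upstream of a TSS, and 8.99% had one within 500 bp on either side. Only 6217 of the 13945 had any IDR summit in their window, as these 4 did. With 4, 3 and 2 TSSs, srp, pnr and GATAe also had more than 1 place to match. None of the 4 promoter summits had CACGTG or CACGCG within 100 bp. A CACGCG did lie 180.5 bp from the pnr summit and another 158.5 bp from the srp summit, both inside their regions. An AGATAG lay 2.5 bp from the srp summit and an AGATAA 22.5 bp from the GATAe summit, while the pnr and grn summits had no GATA hexamer within 100 bp.

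The promoter regions were ranked differently by the replicates. The GATAe promoter region (3R:16011982-16012172, summit 16012094, signal value 207) ranked 1226 in the IDR list, and replicates 1, 2 and 3 gave it ranks of 455, 5478 and 1048. Replicate 2 also had a stronger region that overlapped it, at rank 2622, with its summit 280 bp away at 16011814. The srp promoter region (3R:15985737-15986140, summit 15985939, signal value 123) ranked 3008 in the IDR list, with ranks of 1383, 11880 and 6891 in replicates 1, 2 and 3. In both, replicate 1 placed the region highest and replicate 2 lowest. The pnr promoter region (3R:16025748-16026151, summit 16025950, signal value 160.1) ranked 1905 in the IDR list, 2056 in replicate 2 and 3530 in replicate 3. Replicate 1 had no region within 100 bp of it, nor any summit in the 32.1 kb between 16015552 and 16047639. The grn promoter region (3R:8181378-8181781, summit 8181580, signal value 147) ranked 2203 in the IDR list, with ranks of 14878, 1027 and 1911 in replicates 1, 2 and 3. Replicate 1 also had a stronger region further upstream of the grn TSS, at rank 5653 with its summit at 8182065. It did not overlap the promoter region. Within 100 bp of the pnr and grn promoter summits, then, replicate 1 was the lowest or had no region. With 1 rank per replicate the difference between libraries has no test, and its source was not tested.

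**Figure D3:**
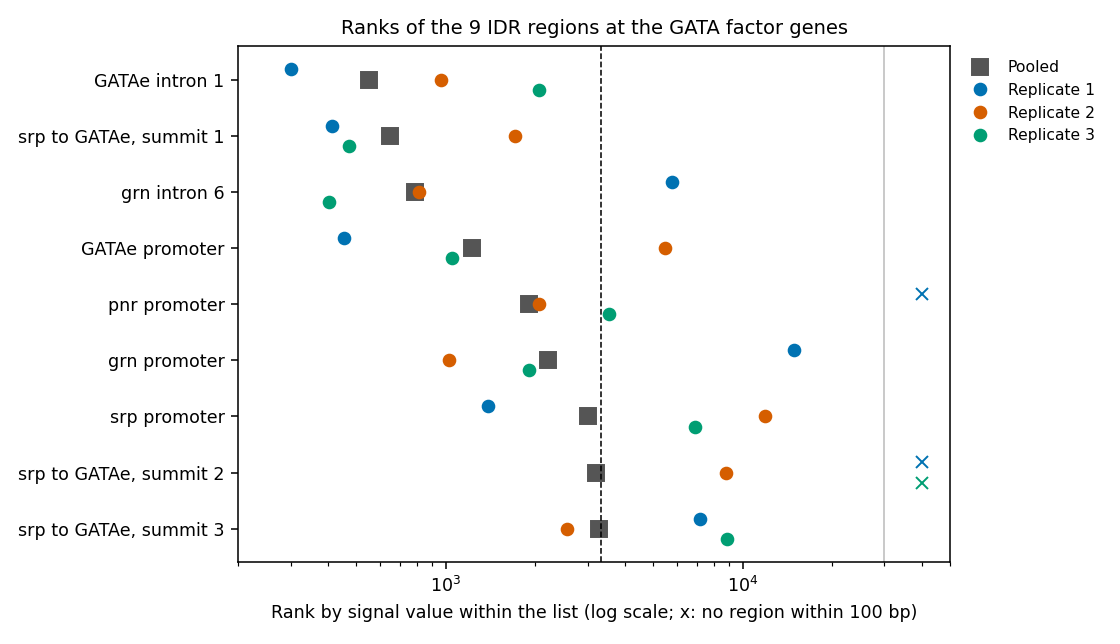
Ranks of the 9 IDR regions at the GATA factor genes within the pooled list (squares) and within each replicate (circles), from the strongest pooled region at the top. The x axis is the rank by signal value on a log scale, the dashed line is rank 3319, the grey line is rank 30000, and a cross means that the replicate had no summit within 100 bp. The upper pair have every point left of the dashed line, and the replicate 1 points of the pnr and grn promoters lie to its right or are crosses.

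grn (FBgn0001138, 3R:8147368-8181444, minus strand) lies apart from the other genes on 3R. Its stronger region was not at the promoter but in the sixth of its 8 introns, at 3R:8152702-8153022, with the summit at 8152834, 5466 bp before the 3' end of the gene. It ranked 786 in the IDR list with a signal value of 265, and 5788, 811 and 405 in replicates 1, 2 and 3. Replicate 1 had a stronger summit 142 bp away, at 8152692, which ranked 2169 and had a CACGCG within 100 bp. The pooled summit itself had none of the sites within 100 bp. grn had 21 pooled regions in its 54.1 kb window, 15 of them inside the gene and 2 of the 21 among the 3319 highest. Of the weaker ones, a pooled region that ranked 10162 (summit at 8162497) held 2 CACGTG, and 3 regions that ranked 17570, 17686 and 20505 held a CACGCG each.

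**Figure D4:**
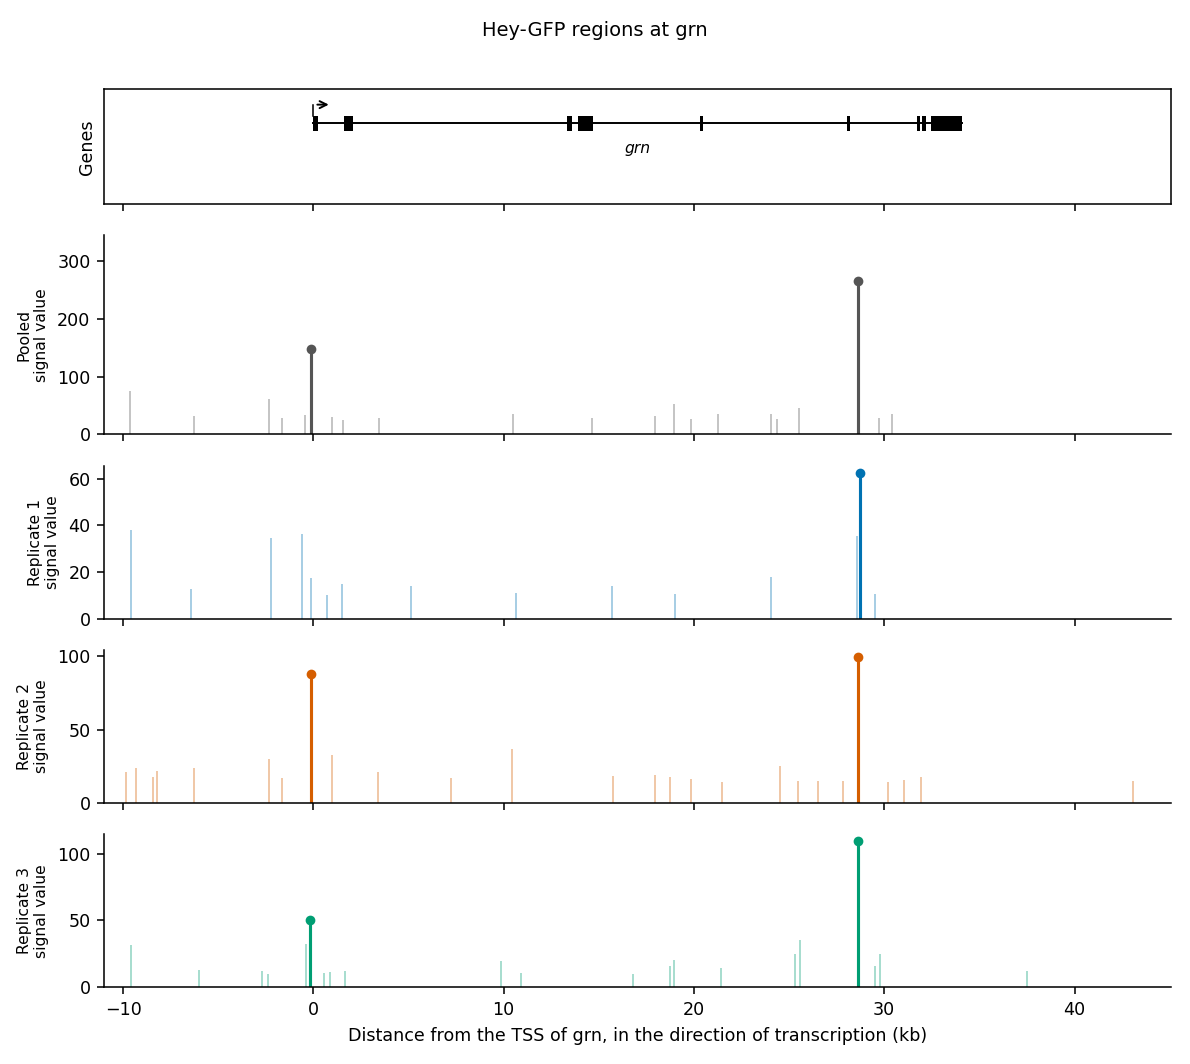
Regions at grn, drawn in the direction of transcription with the gene model above. The x axis is the distance from the TSS in kb, the stems give the signal value of each list, and dots mark regions among the 3319 highest of the list. A stem in the sixth intron is the tallest in every list, and at the promoter replicates 2 and 3 have a dot where replicate 1 has a short stem.

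GATAd (FBgn0032223, 2L:10333734-10339185, plus strand) had no IDR region and no pooled region in its window, although 2 replicates ranked a region there highly. The replicate 1 region, at 2L:10334985-10335344, ranked 1230 with a signal value of 82.9, and the replicate 3 region, at 2L:10334842-10335281, ranked 1146 with a signal value of 66.4. Both lay in the first intron and shared 297 bp, with summits 103 bp apart at 10335165 and 10335062. Near each summit, within 100 bp, there was 1 GATA hexamer and neither CACGTG nor CACGCG. Replicate 2 had no region in the window. Of 1794 replicate 1 regions among its 3319 highest that overlapped one of the 3319 highest of replicate 3, 51 (2.84%, 95% Wilson interval 2.17 to 3.72) had no overlapping pooled region, as here.

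The absence of pooled regions was not limited to the gene. GATAd stands inside a stretch of 267.6 kb, between the pooled summits at 10201029 and 10468594, with no pooled summit at all, and the median interval between neighbouring pooled summits was 1554.5 bp. It was the 8th longest of 29994 such intervals. The 7 longer ones held between 0.391 and 4.22 protein-coding genes per 100 kb, whereas this one held 91 such genes, or 34.01 per 100 kb, beside 10.4 over the 6 arms. Within the same stretch replicate 1 had 7 summits, replicate 2 had 3 and replicate 3 had 48, beside the 59.96 that the mean density of a list of 30000 would give. Replicate 3 also had 5 of its 3319 highest regions there, the best at rank 155, replicate 1 had 2 and replicate 2 none. The count of 0 at GATAd therefore goes with a stretch that the pooled list, replicate 1 and replicate 2 left empty or nearly so and replicate 3 did not. What sets the stretch apart was not tested.

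**Figure D5:**
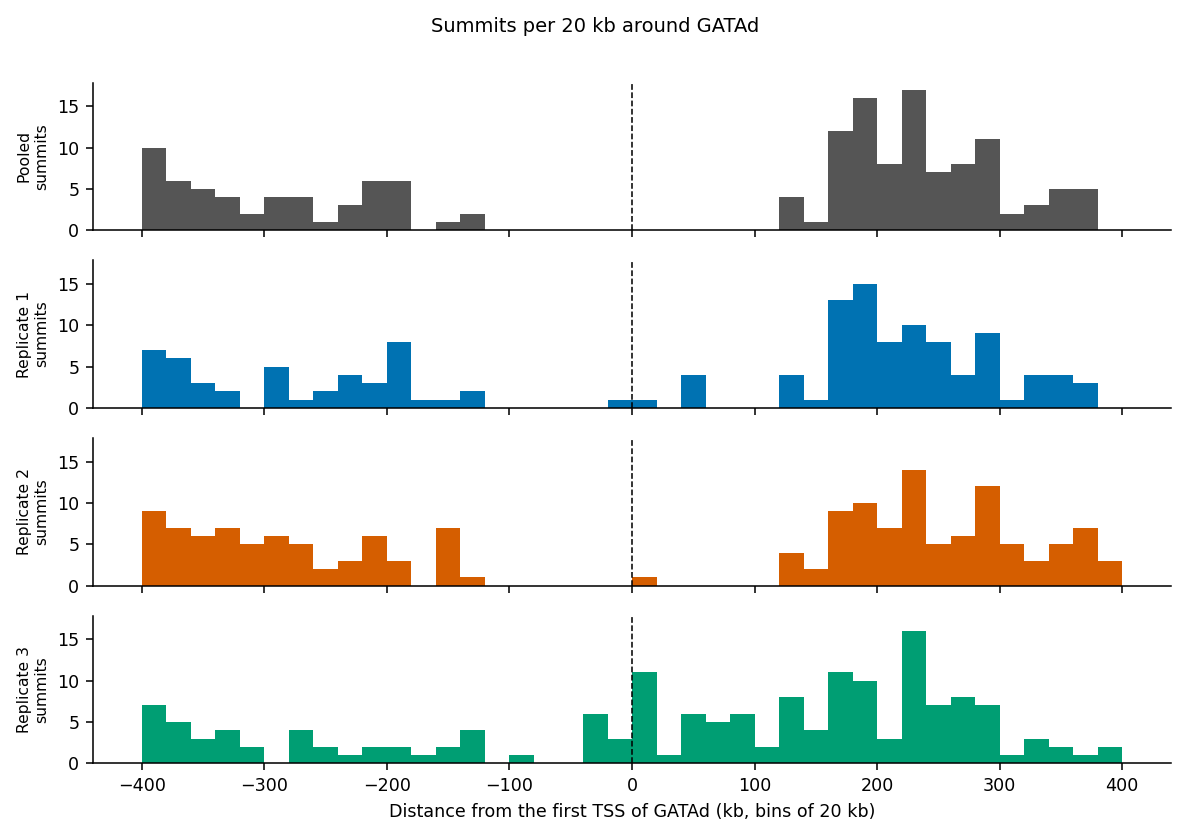
Number of summits per 20 kb within 400 kb of the first TSS of GATAd (dashed line) in the pooled list and in each replicate. The x axis is the distance in kb. The pooled panel is empty around the gene, replicates 1 and 2 have few summits there, and replicate 3 has summits through much of the stretch.

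How many of the 9 IDR regions held a site for Hey's family depended on the distance searched. CACGTG was found within 100 bp of 1 of the 9 summits (11.1%), against 17.1% of all IDR summits, and CACGCG of another 1 (11.1%), against 15.03%. CACGTG or CACGCG was present within 100 bp of 2 of 9 summits (22.2%, 95% Wilson interval 6.32 to 54.7), against 993 of 3319 in the whole IDR list (29.9%). Within 200 bp of the summit 4 of 9 had a site (44.4%, interval 18.9 to 73.3), against 38.2% of the whole list, and anywhere in the region 5 of 9 (55.6%, interval 26.7 to 81.1), against 36.1%. Of these 5 summits, 2 lie in the same region between srp and GATAe and were counted by the same CACGCG. Within 50 bp of the summit 2 of 9 had a site (22.2%, interval 6.32 to 54.7), against 21.6%. The share was thus below that of the whole list at 100 bp and above it at the other settings, barely so at 50 bp. Each time the wide interval held the share of the whole list. Between 400 and 600 bp from the summit, on either side, the share was 5.56% at the GATA factor genes and 6.93% in the whole list. Among the 49 pooled regions 7 had a site (14.3%, interval 7.10 to 26.7), against 14.5% of all pooled regions. The 2 IDR regions with a site were those with the highest signal values, and the other 7 had none within 100 bp. Intervals cover counting error over regions only.

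GATA hexamers were counted in the same way. At least 1 lay within 100 bp of 3 of 9 summits (33.3%, 95% Wilson interval 12.1 to 64.6), against 39.2% of all IDR summits, and in 38.9% of the windows 400 to 600 bp away, against 34.2% in the whole list. Within 50 bp it was also 3 of 9 (33.3%, interval 12.1 to 64.6), against 23.6%, here above the whole list. Within 200 bp it was 5 of 9 (55.6%), against 58.1%, and anywhere in the region 4 of 9 (44.4%), against 51.1%. The longer AGATAAG was found at 0 of 9 summits (0%, interval up to 29.9), against 5.36% of all IDR summits. A match is a string in the window and does not show that a factor binds there.

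The 9 regions were compared with the whole IDR list by position. A TSS lay within 500 bp of 4 of the summits (44.4%, 95% Wilson interval 18.9 to 73.3), against 37.1% of all IDR summits. By annotation, 4 were in introns (44.4%, against 50.1% of the whole list), 3 in intergenic sequence (33.3%, against 33.2%) and 2 in an exon of the non-coding gene (22.2%, against 4.13%). These 2 summits share 1 region. None was in a coding exon, a 5' UTR or a 3' UTR, against 1.14%, 10.2% and 1.24% of the whole list. Their median signal value was 160.1, against 173.2 for the whole list.

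Support in all 3 replicates was found at the strongest pair of regions. Of the 9, 2 (22.2%, 95% Wilson interval 6.32 to 54.7) had a summit among the 3319 highest of all 3 replicates within 100 bp, the GATAe intron and the stronger of the summits between srp and GATAe, against 36.5% of all IDR regions. With a reciprocal overlap of 50% in place of the summit distance, 3 of 9 (33.3%) had support, against 22.2% of all IDR regions. With an overlap of 1 bp it was 4 of 9 (44.4%), against 44.0%. Both overlap counts include the 2 summits that share 1 region between srp and GATAe, supported by the same replicate regions. By these counts of summits, which share was larger depended on the rule. Shares with that region counted once were not computed. By summit distance, a further 3 were found in 2 replicates, 3 in 1 and 1 in none. Support is a description here, because the IDR list was derived from the same replicates. Among the 3319 highest regions of replicate 1, at least 1 fell in the window of srp, GATAe, grn and GATAd, 4 of 5 genes, against 48.3% of protein-coding genes. In replicate 2 they were srp, pnr, GATAe and grn, against 42.5%, and in replicate 3 the same 4 genes as in replicate 1, against 44.7%. Replicate 1 had 7 of its 3319 highest regions in the windows of the 5 genes, replicate 2 had 8 and replicate 3 had 6. Among the 3319 lowest the numbers were 5, 8 and 8. The highest averaged 7 ± 1 and the lowest 7 ± 1.73 (SD, n = 3), a mean difference of 0 ± 2 (exact sign-flip permutation test over replicates, two-sided p = 1, where 3 pairs cannot go below 0.25). The highest regions were more numerous in 1 of 3 replicates, and in every replicate both numbers lay above the 3.85 that the mean density over the arms would give. Of the high replicate regions, 3, 2 and 1 in replicates 1, 2 and 3 were more than 100 bp from an IDR summit of the family. Besides those at GATAd and in the grn intron, they were a region in the 5' UTR of srp in replicate 1 (rank 3265, summit 15993325) and a pair in an intron of GATAe in replicate 2 (ranks 2622 and 3115, summits 16011814 and 16010155). The region at rank 2622 overlapped the GATAe promoter region.

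A list of 36 genes known to act with, above or below the GATA factors was read in the same way. It was chosen with earlier results of these data known. Of these, 20 (55.6%) had an IDR summit inside the gene or within 10 kb, against 44.6% of protein-coding genes. With windows of 5 and 20 kb it was 15 of 36 (41.7%), against 31.0%, and 26 of 36 (72.2%), against 62.5%. With summits inside the gene alone it was 3 of 36 (8.33%), against 9.15%, and within 1 kb of a TSS 3 of 36 (8.33%), against 11.4%. The share of the list thus lay above that of all protein-coding genes by the windows of 5, 10 and 20 kb and below it by the last 2 rules. These differences were not tested. By role, they were 3 of 4 cofactors, 2 of 6 upstream factors, 5 of 9 blood cell genes, 6 of 9 genes of dorsal mesoderm and heart, 0 of 2 notum targets, 2 of 3 midgut genes and 2 of 3 fat body genes. Among the 16 genes with no IDR summit within 10 kb were the achaete-scute genes ac and sc, which Pannier activates. Others were dpp, which acts upstream of pnr, and lz, the Runx gene that works with Serpent in crystal cells. These were picked from the 16 and fall outside the naming rule given below. ush had the highest count of the list. It encodes U-shaped, the Friend of GATA protein that binds Pannier and Serpent, and it had 13 IDR summits in its window, 10 of them inside the gene. At least 13 were present at 0.0574% of protein-coding genes. Its strongest region ranked 22 in the IDR list with a signal value of 1112, and 18, 34 and 35 in replicates 1, 2 and 3, with none of the sites within 100 bp of the summit. That summit, at 2L position 481114, was inside ush but nearest to the TSS of cbt, 1426 bp away.

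fkh, the forkhead gene of the gut primordia, had 7 IDR summits in its window, none of them inside the gene. At least 7 were present at 0.531% of protein-coding genes. Neither this count nor that of ush was adjusted for window length. The strongest summit of fkh lay 238 bp upstream of its TSS. It ranked 133 in the IDR list and 170, 113 and 250 in replicates 1, 2 and 3. mid, a T-box gene of the heart, had 1 IDR summit, 1986 bp beyond the gene, that ranked 251 and had 2 CACGTG within 100 bp. Fbp1, a fat body gene, had its strongest summit 3863 bp upstream, at rank 324, with 1 CACGTG, 1 CACGCG and 2 GATA hexamers within 100 bp. For the other 4 of the 8 highest, the nearest TSS belonged to another gene. The summits of Lsp2 (rank 167), mex1 (rank 210), Doc1 (rank 400) and Pxn (rank 446) were 19 bp from yps, 111 bp from CG7841, 266 bp from Argk1 and 68 bp from MEP-1.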

How the data were processed

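Regions of 3 Hey-GFP libraries came from 5 deposited narrowPeak lists on dm6, per the labels. The files' own listings say that each replicate list was called against a control, that the pooled list used all 3 libraries, and that the IDR list came from those 4. The caller, IDR threshold and sequencing depth were not given in the sources used here. Regions were ranked by the signal value deposited by the authors (column 7). The −log10 q-value deposited by the authors did not vary over the IDR list and played no role in the ranks. The IDR list equalled the 3319 highest pooled regions.

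Genes came from Ensembl release 115 (BDGP6.54) without transposable elements, on 6 arms, and sequence from RefSeq release 6, with the coordinates of dm6, given 1-based. Sites were searched on both strands within 100 bp of summits and 400 to 600 bp away (CACGTG is its own reverse complement, AGATAAG contains AGATAA). A replicate supported a region when one of its 3319 highest summits lay within 100 bp. Alternatives were windows of 0, 5 and 20 kb, overlap rules, stricter lists, site distances and leaving out each replicate. Python 3.11.15, numpy 2.4.6, pandas 2.3.3 and scipy 1.17.1 were used. On simulated data, 100% of CACGTG sites planted in 3319 windows were found, and window counts of 500 genes equalled those of bedtools 2.31.1.

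The members, the 36 related genes and the naming rule were chosen with earlier results of these data known. The rule named the 5 genes with all their IDR regions or, failing these, their highest regions, the nearest genes, and the 8 related genes with the highest signal value.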

Additional observations from a re-analysis of the deposited data

How the results depend on the processing

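The number of IDR summits at the GATA factor genes was 9, and 8 to 11 when repeated intervals counted once, midpoints replaced summits, or windows of 5 and 20 kb were used. It was 3 inside the genes alone, 4 in the 1659 highest IDR regions, 5 for regions found in at least 2 replicates and 2 for those in all 3. Leaving out each replicate gave 2 to 4 (4 without replicate 1, 3 without replicate 2 and 2 without replicate 3), where both remaining replicates had to list the region among their highest. The share with CACGTG or CACGCG was 22.2%, both within 100 bp and within 50 bp. It was 44.4% within 200 bp and 55.6% anywhere in the region, where 2 of the summits shared 1 CACGCG. Leaving out each replicate gave 50% to 100%, over only 2 to 4 regions. The share with a GATA hexamer was 33.3%, both within 100 bp and within 50 bp, and 0% for AGATAAG alone. It was 55.6% within 200 bp, 44.4% anywhere in the region, and 25% to 66.7% when each replicate was left out. Support in all replicates was 22.2%, and 77.8% against all regions of the replicate lists, where the whole IDR list had 78.6%; it was 22.2% to 44.4% when each replicate was left out. By a reciprocal overlap of 50% it was 33.3%, against 22.2% of the whole list, and by 1 bp 44.4%, against 44.0%. In both overlap counts 2 of the summits shared 1 region and its support. The mean difference between highest and lowest regions ran from -1 to 1 over the windows and when each replicate was left out, with exact permutation p from 0.75 to 1. Of the 36 related genes, 20 had an IDR summit, 15 with a window of 5 kb (41.7%, against 31.0% of protein-coding genes) and 26 with 20 kb (72.2%, against 62.5%). It was 3 by summits inside the gene (8.33%, against 9.15%) and 3 within 1 kb of a TSS (8.33%, against 11.4%). When each replicate was left out it was 14 to 17 (38.9% to 47.2%, against 27.7% to 29.8%). Read depth is unknown from the lists, so a place with no region is not shown to be unbound.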
